A study of Homo sapiens with 18 samples.

Results

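The genes described here are 43 interferon-stimulated genes, chosen by symbol from the 26485 genes in the deposited count files: transcription factors of the interferon response and the antiviral genes that it induces. All 43 passed the filter on low counts that left 14011 genes for testing. The filter took all 18 libraries together, so a gene at low counts in a line could pass through another line. They were followed in 18 RNA libraries of 3 established human pancreatic cancer lines. Cells of BxPC3, Panc327 or SUIT2 had been kept for 6 h in 100 nM THZ1, or for 6 h in the solvent DMSO, which makes 6 groups with 3 libraries in each. THZ1 binds CDK7 covalently and blocks it, and to a lesser extent CDK12 and CDK13, kinases that act on RNA polymerase II during initiation and elongation. The labels name no transgene, knockout or interferon treatment in any group, and the study's title concerns SIRT6 and resistance to transcriptional inhibition.

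Interferons are secreted proteins that signal through cell-surface receptors and the kinases JAK1 and TYK2. Type I and type III interferons lead to a transcription factor complex that includes STAT2 and IRF9 and binds the interferon-stimulated response element (ISRE) in promoters. The induced genes encode sensors of foreign RNA, proteins that block entry, translation or assembly of viruses, and regulators that feed back on the pathway. Epithelial tumour cells can express many of them without added interferon.

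Gene counts per library ranged from 5626146 to 8631273. Levels are given as CPM, the count of a gene scaled to library size, after TMM composition scaling, and fold changes as log2 with an approximate SE. A gene was called higher or lower at a Benjamini-Hochberg adjusted p under 0.05 over all genes tested, by edgeR's quasi-likelihood test. This scaling places the median gene near 0, so a rise or fall is relative to the median gene. Scaling by library size alone moved the median gene to -0.35 in BxPC3 and -0.34 in Panc327. Nothing in the labels says that the replicates came from separate cultures, and the p-values cover only the spread among the libraries at hand, which may be technical. In bulk RNA, fewer cells expressing a gene and less RNA per cell cannot be told apart. Ductal epithelial markers (EPCAM, CDH1 and 4 keratins) summed to between 4678 and 10066 CPM in every library. In SUIT2 that sum was mostly KRT8 and KRT18 (3913 and 2110 CPM with DMSO), with CDH1 and KRT7 at 27.3 and 13.6 CPM. The leukocyte markers summed to at most 7.11 CPM, and the plasmacytoid dendritic marker LILRA4 had 0 counts in all libraries.

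With THZ1 the genes moved in both directions in BxPC3 and Panc327, in some role groups as a whole and in others with members on both sides. The membrane restriction factors IFITM1, IFITM2, IFITM3 and BST2, with ISG15, IFI6 and IFI27, rose, and the regulators IRF1 and IRF9, the IFIT genes apart from IFIT1 in BxPC3, the sensors DDX58 (RIG-I) and DDX60, and PARP9, PARP14 and DTX3L fell. The oligoadenylate synthetase genes and the ISG15 system had members called in each direction. In BxPC3 10 of the 43 genes were called higher and 21 lower (edgeR quasi-likelihood test), where 69.4% of all genes tested were called, 35.2% higher and 34.1% lower, and the median log2 fold change of the 43 was -0.32 against 0.0 for all genes. In Panc327 12 were higher and 15 lower, where 73.4% of all genes were called, 35.6% higher and 37.8% lower, with a median of -0.06 against -0.01. In SUIT2 4 were called higher and 6 lower, where 14.6% of all genes were called, 6.95% higher and 7.64% lower, with a median of -0.03 against 0.01. With library size alone the counts were 7 higher and 27 lower in BxPC3, where 18.6% of all genes were higher and 50.7% lower, and 9 higher and 21 lower in Panc327, where 22.6% and 50.3% of all genes were.

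**Figure D1:**
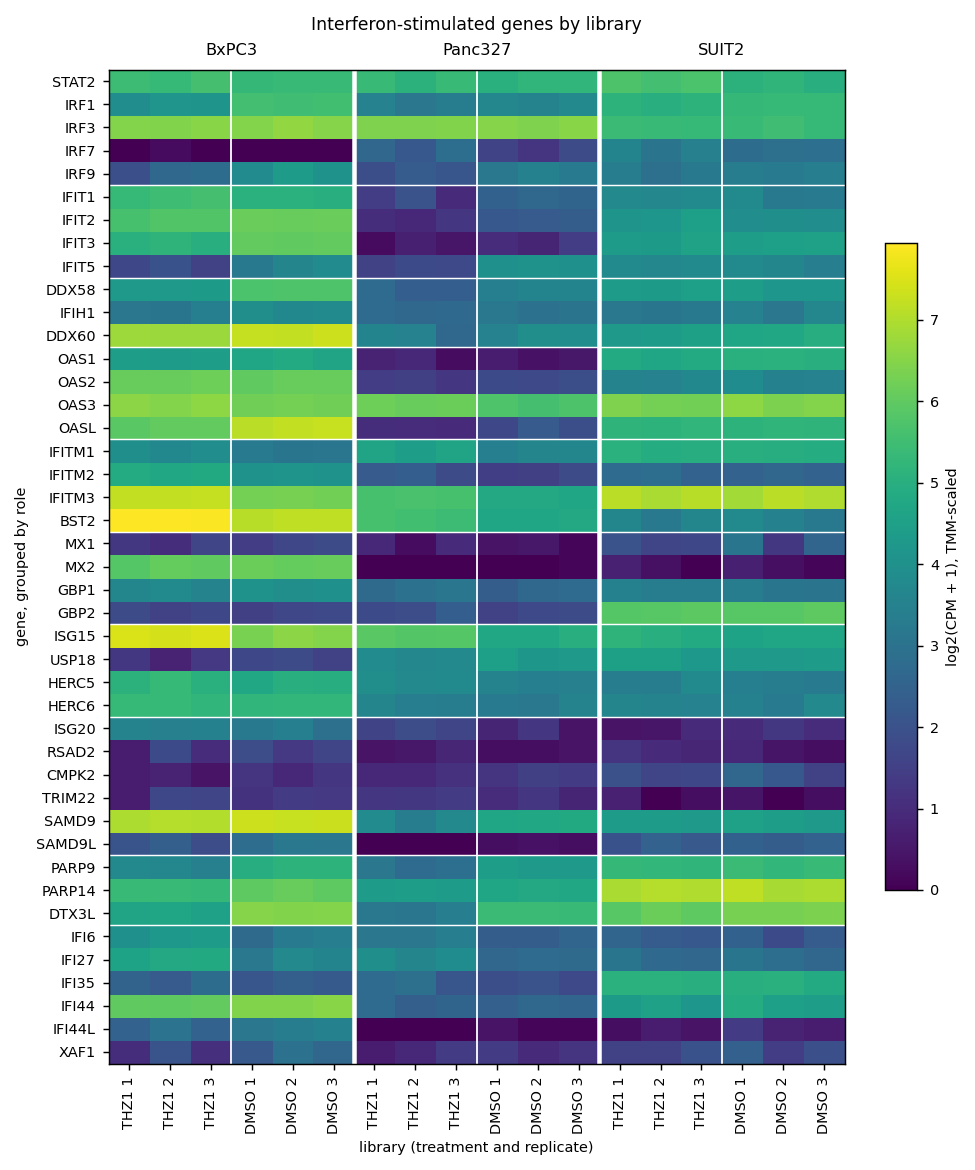
TMM-scaled CPM of the 43 genes, as log2(CPM + 1), in each of the 18 libraries (columns, THZ1 and DMSO replicates of each line), with genes in rows grouped by role. BxPC3 libraries were brighter for most rows than those of Panc327, and the 3 replicates of a group were alike beside the differences between lines.

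Of the genes called in both BxPC3 and Panc327, 9 were higher in both, which is 90% of the BxPC3 rises and 75% of the Panc327 rises. Over all genes tested, the rises shared by the lines were 74.1% of those in BxPC3 and 73.3% of those in Panc327. A further 14 were lower in both, 66.7% of the BxPC3 falls and 93.3% of the Panc327 falls, where the shares over all genes were 76.9% and 69.5%. IFIT3 and SAMD9L, which are among the 14, did not pass the filter with Panc327 fitted alone and were not tested there. IFIT1 was the 1 gene of the 43 called in opposite directions, as were 440 of all genes called higher in BxPC3 and lower in Panc327, and 168 the other way round. The groups compared in the 2 lines share no library, but the calls came from a joint fit of all 18 libraries. That fit shared the filter, the scaling and the estimate of the spread. The summed level of all 43 genes was 1760 ± 23.3 CPM with THZ1 and 1868 ± 38.3 CPM with DMSO in BxPC3, 545 ± 17.9 and 530 ± 12.9 CPM in Panc327. In SUIT2 it was 1044 ± 18.5 CPM with THZ1 and 1060 ± 30.1 CPM with DMSO (SD, n = 3 each). Summed per kilobase of exon, the level was 793 ± 6.42 CPM per kilobase with THZ1 and 619 ± 19.1 with DMSO in BxPC3. It was 244 ± 7.15 and 176 ± 6.3 CPM per kilobase in Panc327. SUIT2 had 343 ± 13.4 with THZ1 and 333 ± 5.03 with DMSO (SD, n = 3 each). Short genes weigh more in this sum. In BxPC3, BST2 held 216 CPM per kilobase with THZ1 and 126 with DMSO. ISG15 held 190 and 92.9, and IFITM3 110 and 56.7. IFI44, the next most abundant, went the other way, at 31.1 and 43.1. The genes BST2, ISG15 and IFITM3 were also the most abundant with THZ1 in Panc327. The rise of the sum per kilobase was thus not one of the whole list, as more genes were called lower than higher in BxPC3 and Panc327. The TMM factors by which library sizes are multiplied were 0.81 to 0.82 with THZ1 and 1.06 to 1.08 with DMSO in BxPC3. In Panc327 they were 0.858 to 0.873 with THZ1 and 1.08 with DMSO. Scaled CPM over all genes therefore also sum higher with THZ1 in these lines. The sum per kilobase was not made over all genes, so its rise has no background.

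The promoters below are shown because genes that moved in opposite directions carry the same ISRE core. The motif searched was GAAA, any 2 bases, and GAAA again, on either strand, in the 250 bases before and 50 after each gene's start in RefSeq (GRCh38.p14). Of the 43 genes, 33 had an entry. In 21 of these 33 (63.6%) the core was present, as it was in 1195 of 27305 promoters (4.38%). Windows around the matches are printed in the gene's own direction, with the core in capitals, for 3 genes that fell in both lines (DTX3L, DDX60 and IFIT5) and 2 that rose in both (ISG15 and OAS3). In ISG15 the 2 matches overlap, and in IFIT5 the core lies on the opposite strand.
DTX3L: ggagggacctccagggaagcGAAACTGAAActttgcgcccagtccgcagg
DDX60: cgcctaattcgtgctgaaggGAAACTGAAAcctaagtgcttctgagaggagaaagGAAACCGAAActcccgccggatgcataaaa
IFIT5: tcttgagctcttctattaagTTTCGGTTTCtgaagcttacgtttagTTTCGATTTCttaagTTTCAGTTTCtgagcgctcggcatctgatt
ISG15: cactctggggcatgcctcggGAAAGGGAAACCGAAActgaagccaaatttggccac
OAS3: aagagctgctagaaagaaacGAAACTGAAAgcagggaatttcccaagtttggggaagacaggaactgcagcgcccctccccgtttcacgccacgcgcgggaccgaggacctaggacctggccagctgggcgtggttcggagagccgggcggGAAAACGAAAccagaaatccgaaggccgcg
The windows lie at chr3:122564312-122564361 (plus strand), chr4:168318776-168318860 (minus), chr10:89414503-89414593 (plus), chr1:1013364-1013419 (plus) and chr12:112938311-112938491 (plus), in the order of the lines. Among genes with a promoter entry, the core was present in 9 of 9 that were called higher and 10 of 18 called lower in BxPC3, and in 9 of 10 and 7 of 12 in Panc327. It was present in 2 of 6 that were not called in BxPC3 and in 5 of 11 in Panc327. In SUIT2 it was present in 1 of 2 called higher, 4 of 6 called lower and 16 of 25 not called. The gamma-activated motif TTCNNNGAA was found in 9 of the 33 promoters (27.3%), against 9.38% of all promoters. Such matches describe letters, not binding.

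Among the transcription factors, IRF1 and IRF9 fell while STAT2 and IRF3 were not called in BxPC3 or Panc327. IRF9 is the DNA-binding partner of STAT2. It stood at 2.84, 5.48 and 5.98 CPM in BxPC3 THZ1 libraries, against 13.1, 19.6 and 15.7 CPM in DMSO libraries. In Panc327 it stood at 2.77, 3.93 and 3.35 CPM with THZ1, against 7.97, 10.3 and 8.5 CPM with DMSO. The groups did not overlap in either line, with log2 fold changes of -1.75 ± 0.18 in BxPC3 (edgeR adjusted p = 4.66e-15) and -1.42 ± 0.22 in Panc327 (adjusted p = 2.31e-08). In SUIT2 it averaged 8.05 ± 1.30 CPM with THZ1 and 9.13 ± 0.425 CPM with DMSO (SD, n = 3 each), a log2 fold change of -0.17 (edgeR adjusted p = 0.531). IRF9 shares 1838 exonic bases on the same strand with another annotated gene, AL136295.5, so its reads may not all be its own.

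IRF1, a transcription factor induced by interferons, held 13.9, 16.6 and 16.3 CPM in BxPC3 THZ1 libraries, against 46.5, 44.6 and 45.4 CPM in DMSO libraries. All THZ1 libraries lay below all DMSO libraries, with a log2 fold change of -1.54 ± 0.10 (edgeR adjusted p = 1.81e-26). Smaller falls were called in Panc327, at -0.32 ± 0.14 (edgeR adjusted p = 0.0372), and in SUIT2, at -0.22 ± 0.08 (edgeR adjusted p = 0.0495). The Panc327 call was lost without DMSO replicate 1 or 3 or THZ1 replicate 2 or 3 (edgeR adjusted p = 0.062, 0.107, 0.199 and 0.0749) and with RLE size factors or DESeq2, with adjusted p from 3.35e-05 to 0.231 over all alternatives tried. The SUIT2 call was lost without any 1 of its 6 libraries (edgeR adjusted p from 0.0578 to 0.202, and as low as 0.0333 over all alternatives tried). Exons of IRF1 overlap 2 opposite-strand genes, and the strand setting of the counting is not given in the sources used here.

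STAT2, the signal transducer that pairs with IRF9, held 51.7, 46.6 and 51.1 CPM in SUIT2 THZ1 libraries, against 33.7, 36.0 and 30.9 CPM in DMSO libraries. This rise of 0.58 ± 0.08 (edgeR adjusted p = 1.33e-08) kept its call under all alternatives tried. In BxPC3 and Panc327 STAT2 was not called, at 0.14 ± 0.08 and 0.11 ± 0.09 (edgeR adjusted p = 0.117 and 0.239), and library size alone turned both to -0.25 and -0.21. IRF7, the factor that amplifies interferon production, rose in Panc327 to 5.20, 3.51 and 6.31 CPM with THZ1, against 2.1, 1.29 and 2.62 CPM with DMSO. The log2 fold change was 1.33 ± 0.27 (edgeR adjusted p = 9.77e-06). IRF7 also rose in SUIT2, by 0.57 ± 0.17 (edgeR adjusted p = 0.0122), a call lost without THZ1 replicate 1 or 3 (edgeR adjusted p = 0.118 and 0.0513, with a range of 0.00364 to 0.118 over all alternatives tried). In BxPC3 it was near 0 in both groups. IRF3, which acts before interferon is made, was not called in any line.

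The IFIT genes, whose proteins bind viral RNA and block its translation, lie side by side on chromosome 10 between 89283694 and 89421001 (GRCh38, GENCODE 29) in the order IFIT2, IFIT3, IFIT1, IFIT5. IFIT5 held 2.31, 3.0 and 1.99 CPM in BxPC3 THZ1 libraries, against 8.27, 11.2 and 13.2 CPM in DMSO libraries. In Panc327 it held 1.91, 2.48 and 2.36 CPM with THZ1, against 14.9, 15.6 and 14.9 CPM with DMSO. These were the largest falls among well-expressed genes of the list in both lines, at -2.16 ± 0.21 and -2.76 ± 0.21 (edgeR adjusted p = 1.2e-15 and 1.37e-21). In SUIT2 IFIT5 averaged 12.5 ± 0.623 CPM with THZ1 and 11.3 ± 1.63 CPM with DMSO, and was not called (edgeR adjusted p = 0.495).

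IFIT1 went the other way in BxPC3, with 38.7, 43.5 and 47.1 CPM in THZ1 libraries, against 32.7, 32.9 and 30.9 CPM in DMSO libraries. In Panc327 it fell to 1.73, 3.10 and 0.985 CPM with THZ1, against 4.54, 5.46 and 4.91 CPM with DMSO. The log2 fold changes were 0.42 ± 0.09 and -1.37 ± 0.28 (edgeR adjusted p = 3.19e-05 and 1.07e-05), although the BxPC3 value was 0.03 with library size alone (edgeR adjusted p = 0.813, against 7.28e-06 at the lowest over all alternatives tried). IFIT2 fell by 0.39 in BxPC3 and by 1.8 in Panc327, and IFIT3 by 0.98 and 1.56. IFIT2 rose in SUIT2, at 16.1, 16.9 and 21.2 CPM with THZ1, against 14.0, 14.5 and 13.8 CPM with DMSO, a log2 fold change of 0.36 ± 0.11 (edgeR adjusted p = 0.0149). That call was lost without DMSO replicate 3 or THZ1 replicate 3 (edgeR adjusted p = 0.065 and 0.248, the lowest being 0.00654 over all alternatives tried). The Panc327 call of IFIT3, at 0.396 CPM with THZ1 and 1.16 CPM with DMSO, was lost without DMSO replicate 3 or THZ1 replicate 1 (edgeR adjusted p = 0.0938 and 0.0776, the lowest being 0.00138 over all alternatives tried). With Panc327 fitted alone, IFIT3 did not pass the filter and was not tested.

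**Figure D2:**
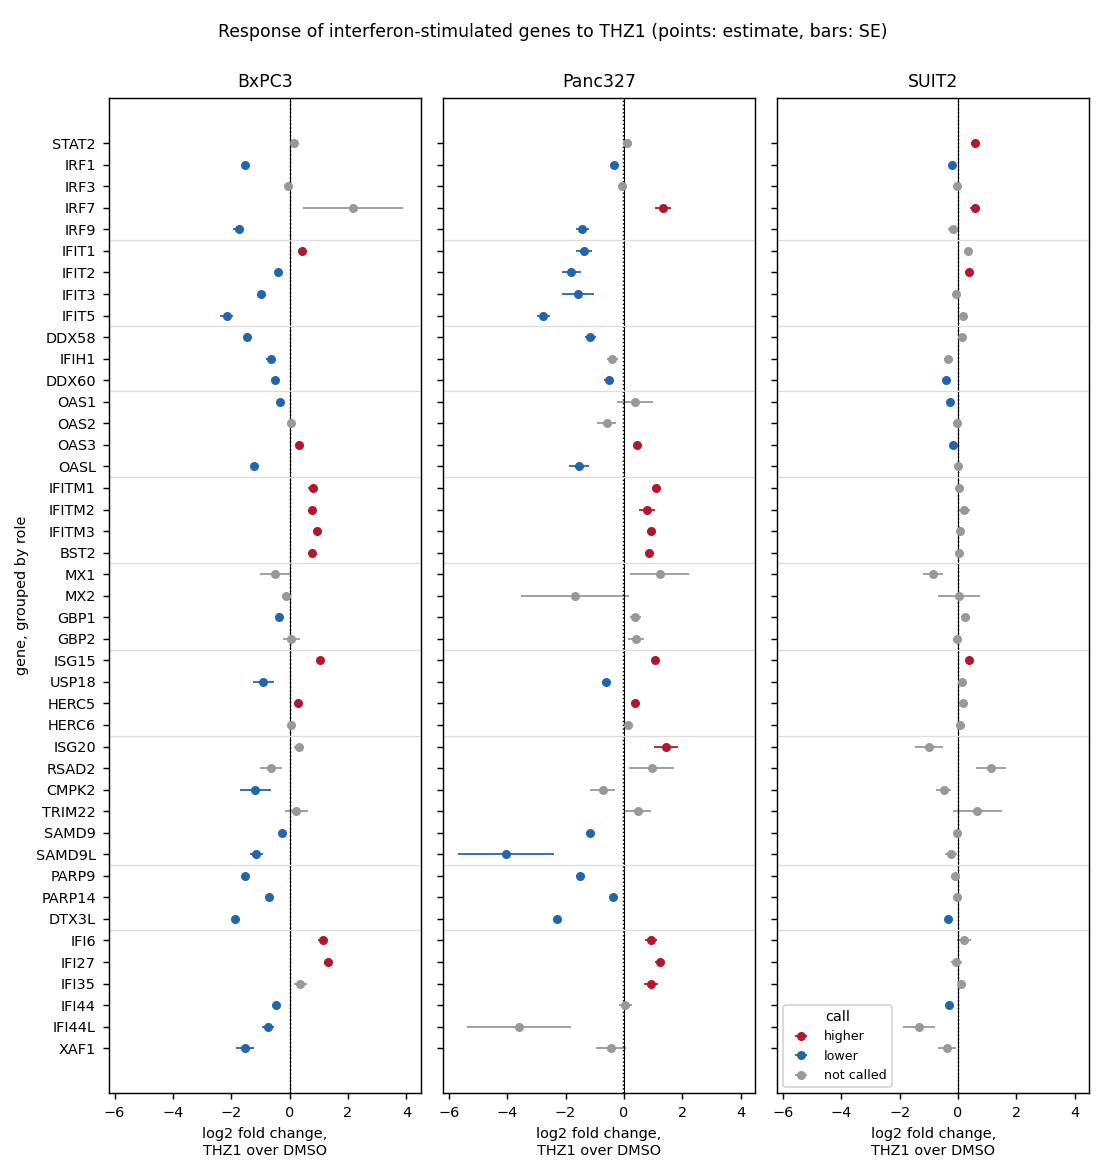
Log2 fold change of each of the 43 genes, THZ1 over DMSO, with its SE, in the 3 lines, coloured by call (edgeR quasi-likelihood, adjusted p under 0.05), with the median of all genes as a dotted line. IFITM1 to BST2 and ISG15 lie to the right of 0 in BxPC3 and Panc327, IFIT5, IRF9 and DTX3L to the left, and most SUIT2 points lie near 0.

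The cytoplasmic RNA sensors fell in BxPC3. DDX58 encodes RIG-I, which recognises viral RNA ends, and held 18.8, 18.7 and 19.3 CPM with THZ1 in BxPC3, against 50.8, 52.8 and 52.6 CPM with DMSO. Its log2 fold change was -1.46 ± 0.09 in BxPC3 and -1.15 ± 0.18 in Panc327 (edgeR adjusted p = 4.53e-26 and 1.2e-08), and 0.14 in SUIT2, where it was not called (edgeR adjusted p = 0.413). IFIH1, which encodes the sensor MDA5, fell by 0.65 in BxPC3 and was not called in the other lines. DDX60, a helicase linked to RIG-I, fell in all 3 lines, by 0.51 in BxPC3, 0.52 in Panc327 and 0.42 in SUIT2 (edgeR adjusted p = 2.55e-11, 0.00243 and 0.00204). Its Panc327 call was lost without THZ1 replicate 3, at 5.32 CPM beside 10.9 and 10.5 CPM (edgeR adjusted p = 0.138, the lowest being 1.56e-06 over all alternatives tried).

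The oligoadenylate synthetases make the second messenger that activates RNase L. OAS1, OAS3 and OAS2 adjoin on chromosome 12 and did not move together. OASL, a relative without that catalytic activity that enhances RIG-I signalling, held 59.2, 65.2 and 64.6 CPM with THZ1 in BxPC3, against 140, 148 and 153 CPM with DMSO. It fell by 1.22 in BxPC3 and by 1.53 in Panc327, where it stood near 1.02 CPM with THZ1 and 2.97 CPM with DMSO. OAS3 rose by 0.31 ± 0.06 in BxPC3 and 0.46 ± 0.07 in Panc327, but with library size alone both calls were lost, at -0.09 and 0.14. In SUIT2 it was lower by 0.17 ± 0.06 (edgeR adjusted p = 0.0483), a call lost without DMSO replicate 1 or 3 or THZ1 replicate 2 or 3 (edgeR adjusted p = 0.315, 0.102, 0.135 and 0.199, the lowest being 0.0145 over all alternatives tried). OAS1 fell by 0.32 in BxPC3 and by 0.26 in SUIT2 (edgeR adjusted p = 0.0308), the second call lost without any 1 of 4 libraries (DMSO replicate 1, 2 or 3 or THZ1 replicate 2; edgeR adjusted p from 0.0565 to 0.172, the lowest being 0.0217 over all alternatives tried). OAS2 was not called in any line.

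The membrane and entry restriction factors rose together in BxPC3 and Panc327. IFITM1, IFITM2 and IFITM3 lie within 307631 to 327537 on chromosome 11 and encode proteins that hold back fusion of viral and cell membranes, and BST2 (tetherin) holds budding virions at the cell surface. BST2 held 245, 243 and 235 CPM with THZ1 in BxPC3, against 135, 144 and 143 CPM with DMSO. In Panc327 it held 48.7, 45.1 and 42.8 CPM with THZ1, against 24.4, 24.3 and 26.5 CPM with DMSO. The groups were well apart, at 0.78 ± 0.05 and 0.86 ± 0.09 (edgeR adjusted p = 3.44e-24 and 4.2e-15).

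IFITM3 held 146, 148 and 150 CPM with THZ1 in BxPC3, against 76.7, 77.8 and 75 CPM with DMSO. In Panc327 the values were 48.9, 49.4 and 48.5 CPM with THZ1, against 26.7, 26.6 and 24.2 CPM with DMSO. Its log2 fold change was 0.95 ± 0.06 and 0.92 ± 0.09 (edgeR adjusted p = 8.28e-27 and 3.73e-17). In SUIT2, where it was high in both groups, it held 138, 121 and 135 CPM with THZ1 and 113, 137 and 126 CPM with DMSO, and the groups overlapped. IFITM1 rose by 0.78 ± 0.14 in BxPC3 and 1.08 ± 0.12 in Panc327, and IFITM2 by 0.78 ± 0.11 and 0.78 ± 0.27. The IFITM2 call in Panc327 was lost without THZ1 replicate 2 (edgeR adjusted p = 0.0568) and with library size alone (adjusted p = 0.124, the highest, with 0.00243 the lowest). The 3 IFITM genes are related in sequence and IFITM1 and IFITM2 share 351 exonic bases. Some of their reads may have been assigned to the wrong copy or left uncounted, so their separate values are uncertain. None of the 4 was called in SUIT2.

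ISG15, a ubiquitin-like modifier, was called higher in all 3 lines. It held 181, 172 and 182 CPM in BxPC3 THZ1 libraries, against 80.5, 93.5 and 88.3 CPM in DMSO libraries, a log2 fold change of 1.03 ± 0.06 (edgeR adjusted p = 1.22e-29). In Panc327 it held 58.6, 55.0 and 56.4 CPM with THZ1, against 25.7, 25.5 and 30.6 CPM with DMSO (1.06 ± 0.08, edgeR adjusted p = 7.01e-21). In SUIT2 it held 34.7, 30.5 and 28.0 CPM with THZ1, against 23.5, 24.8 and 24.5 CPM with DMSO (0.36 ± 0.09, edgeR adjusted p = 0.00249), and the call was lost without THZ1 replicate 1 (edgeR adjusted p = 0.0661, the lowest being 0.00105 over all alternatives tried). USP18, the protease that removes ISG15 and restrains the type I receptor, fell instead, by 0.90 in BxPC3 and by 0.62 in Panc327. In BxPC3 USP18 was near 1.21 CPM with THZ1 and 2.28 CPM with DMSO, and the call was lost without THZ1 replicate 2 or DMSO replicate 2 (edgeR adjusted p = 0.131 and 0.0649, the lowest being 0.000575 over all alternatives tried). The ISG15 ligase HERC5 rose by 0.28 and 0.38, and its relative HERC6 was not called. With library size alone HERC5 lost both calls, at -0.12 in BxPC3 and 0.06 in Panc327, and it lost them without BxPC3 THZ1 replicate 2 or DMSO replicate 1 (edgeR adjusted p = 0.116 and 0.0602) or Panc327 THZ1 replicate 1 (adjusted p = 0.0904). The adjusted p of HERC5 ran from 0.0021 to 0.264 in BxPC3 and from 0.00138 to 0.744 in Panc327 over all alternatives tried.

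**Figure D3:**
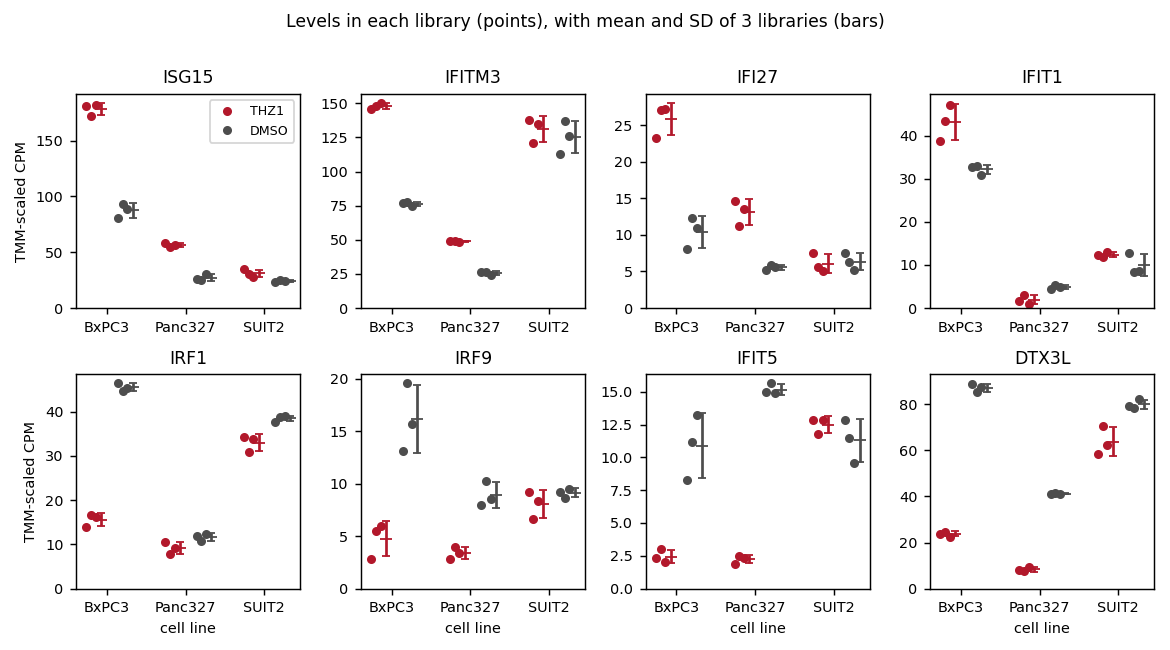
TMM-scaled CPM in each library (points) with the mean and SD of 3 libraries (bars) for 8 genes, THZ1 left of DMSO in each line. ISG15 and IFITM3 were higher with THZ1 in BxPC3 and Panc327, IRF9, IFIT5 and DTX3L were lower, and IFIT1 was higher in BxPC3 but lower in Panc327.

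DTX3L and PARP9 form a ubiquitin ligase and ADP-ribosylation complex, and PARP14 is a related ADP-ribosyltransferase. DTX3L fell in every line. It held 23.8, 24.7 and 22.6 CPM with THZ1 in BxPC3, against 88.9, 85.6 and 87.4 CPM with DMSO. In Panc327 it held 7.97, 7.65 and 9.46 CPM with THZ1, against 41.2, 41.7 and 41.0 CPM with DMSO. In SUIT2 it held 58.3, 70.8 and 62.4 CPM with THZ1, against 79.4, 78.4 and 82.3 CPM with DMSO. No group overlapped its control, and the log2 fold changes were -1.88 ± 0.08, -2.30 ± 0.12 and -0.33 ± 0.06 (edgeR adjusted p = 2.68e-38, 5e-33 and 4.08e-05).

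PARP9 fell by 1.53 in BxPC3 and by 1.5 in Panc327 (edgeR adjusted p = 1.98e-22 and 2.36e-16) and was not called in SUIT2 (-0.09, edgeR adjusted p = 0.477). It starts head to head with DTX3L on chromosome 3, and their exons share 217 bases on opposite strands. PARP14, 105414 bases beyond DTX3L, fell by 0.71 in BxPC3 and by 0.36 in Panc327. SAMD9, an antiviral gene whose product restricts poxviruses, held 124, 132 and 131 CPM with THZ1 in BxPC3, against 159, 153 and 156 CPM with DMSO, a fall of 0.28. In Panc327 the fall was larger, to 13.3, 9.30 and 12.4 CPM with THZ1, against 25.1, 26.1 and 27.1 CPM with DMSO (-1.15 ± 0.12, edgeR adjusted p = 1.89e-15). Its neighbour SAMD9L fell by 1.14 in BxPC3. In Panc327 it had 0 counts over the 3 THZ1 libraries and 7 over the 3 DMSO libraries, at least 1.33-fold lower when 3 counts are set for the group at 0. That call was lost without any 1 THZ1 library (edgeR adjusted p from 0.0523 to 0.0621, the lowest being 0.0107 over all alternatives tried). With Panc327 fitted alone, SAMD9L did not pass the filter and was not tested.

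IFI27 and IFI6 are small membrane proteins of mitochondria and the endoplasmic reticulum. IFI27 held 23.3, 27.0 and 27.2 CPM with THZ1 in BxPC3, against 8.03, 12.3 and 10.9 CPM with DMSO, the largest rise among called genes there (1.30 ± 0.13, edgeR adjusted p = 6.81e-16). In Panc327 it held 14.6, 11.2 and 13.6 CPM with THZ1, against 5.20, 5.89 and 5.67 CPM with DMSO (1.24 ± 0.17, edgeR adjusted p = 3.68e-10). IFI6 rose by 1.13 ± 0.15 in BxPC3 and 0.92 ± 0.20 in Panc327. In SUIT2 the groups overlapped for both genes, with -0.05 for IFI27 and 0.20 for IFI6 (edgeR adjusted p = 0.901 and 0.608). IFI35, a regulator of innate signalling, rose by 0.94 in Panc327.

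XAF1, a proapoptotic gene, fell by 1.53 in BxPC3, to 1.07, 3.18 and 1.16 CPM with THZ1, against 3.65, 6.78 and 5.12 CPM with DMSO. Exons of XAF1 share 2535 bases with the opposite-strand gene PRAL, and the strand setting of the counting is not given. IFI44 fell by 0.47 in BxPC3 and by 0.29 in SUIT2 (edgeR adjusted p = 0.0376). The SUIT2 call was lost without DMSO replicate 1 or THZ1 replicate 1 or 3 (edgeR adjusted p = 0.498, 0.0801 and 0.257, the lowest being 0.0132 over all alternatives tried). IFI44L fell by 0.75 in BxPC3, and in Panc327 it had 0 counts over the THZ1 libraries and 5 over the DMSO libraries. The exonuclease gene ISG20 rose in Panc327 by 1.44, at 2.08, 2.69 and 2.17 CPM with THZ1, against 0.775, 1.39 and 0.327 CPM with DMSO.

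The guanylate-binding and MX genes, GTPases that act on pathogens inside the cell, gave 1 call with THZ1. GBP1 fell by 0.37 in BxPC3 (edgeR adjusted p = 0.0123), a call lost without THZ1 replicate 3 (edgeR adjusted p = 0.0693, the lowest being 4.73e-07 over all alternatives tried). MX1, MX2 and GBP2 were not called in any line, with log2 fold changes of the 4 genes between -1.68 and 1.23 in Panc327 at low counts, nor were RSAD2 (viperin) and TRIM22. MX2 stood at 56.5, 65.7 and 63.1 CPM with THZ1 in BxPC3, against 70.7, 66.5 and 66.8 CPM with DMSO. CMPK2, a mitochondrial nucleotide kinase, was called lower in BxPC3 at 0.524 CPM with THZ1 and 1.20 CPM with DMSO (edgeR adjusted p = 0.0448). Without THZ1 replicate 1 or 3 or DMSO replicate 1 or 3 that call was lost (edgeR adjusted p from 0.0854 to 0.17, the lowest being 0.00668 over all alternatives tried). With BxPC3 fitted alone, CMPK2 did not pass the filter and was not tested. DESeq2 ended the calls of GBP1 and CMPK2 in BxPC3 (adjusted p = 0.0655 and 0.0811), SAMD9L in Panc327 (0.052), and IRF7, IRF1, OAS1, OAS3 and IFI44 in SUIT2 (0.116, 0.116, 0.1, 0.0911 and 0.0852). RLE size factors ended that of CMPK2 (edgeR adjusted p = 0.0541). In SUIT2, OAS3 and IFI44 also lost their calls with limma voom (adjusted p = 0.0536 and 0.0678) and with the line fitted alone (edgeR adjusted p = 0.0602 and 0.0792). Without the filter on low counts, IRF1 and OAS3 lost theirs (edgeR adjusted p = 0.0667 and 0.0508).

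The genes that rose in both BxPC3 and Panc327 had a shorter median length than those that fell in both, with overlapping ranges. The 9 that rose had a median exonic length of 1348 bases (865 to 8251) and a median span of 7869 bases (1767 to 49047). The 14 that fell had medians of 5110.5 exonic bases (2129 to 10495) and a span of 19321.5 bases (5513 to 102515). These lengths, from GENCODE 29, describe 23 genes and were not tested. Lengths of all genes that rose or fell in both lines were not compared, so the difference has no background.

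**Figure D4:**
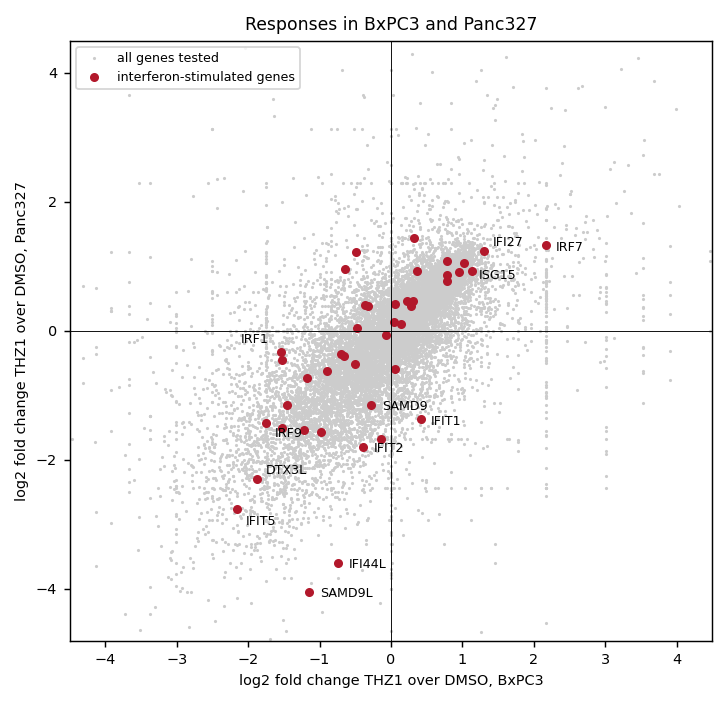
Log2 fold change, THZ1 over DMSO, in BxPC3 (horizontal) and Panc327 (vertical) for all genes tested (grey) and the 43 genes (red). IFIT1 lies in the lower right quadrant, ISG15 and IFI27 in the upper right, and IFIT5 and DTX3L in the lower left; 48 genes lie outside the axes.

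The difference between the responses of 2 lines was tested directly. Between BxPC3 and Panc327, 4 genes had a higher response in BxPC3 and 4 a lower one, where 36.3% of all genes differed, 22.2% higher and 14.1% lower. The largest differences were for IFIT1 (1.79 ± 0.29, edgeR adjusted p = 3.45e-07) and IFIT2 (1.41 ± 0.34, edgeR adjusted p = 0.000451), as IFIT1 rose in BxPC3 and fell in Panc327, and IFIT2 fell further in Panc327. SAMD9 followed, at 0.87 ± 0.13 (edgeR adjusted p = 2.85e-08). IRF1 went the other way at -1.22 ± 0.18 (edgeR adjusted p = 2.93e-08), as it fell further in BxPC3, and GBP1 differed by -0.76 ± 0.24 (edgeR adjusted p = 0.00682). ISG20 differed by -1.12 (edgeR adjusted p = 0.033), a call lost without BxPC3 DMSO replicate 2, Panc327 THZ1 replicate 2, or Panc327 DMSO replicate 1 or 3 (edgeR adjusted p from 0.0725 to 0.197, the lowest being 0.00578 over all alternatives tried). DTX3L (0.42 ± 0.16) and PARP14 (-0.35 ± 0.13) completed the 8, and each lost its call under 7 alternatives. With RLE size factors the split was 3 higher and 6 lower, where 18.7% and 19% of all genes were. With only these lines fitted it was 3 and 7, where 17.3% and 25.1% of all genes were.

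Between BxPC3 and SUIT2, 9 responses were higher in BxPC3 and 16 lower, where 54.9% of all genes differed, 27.3% higher and 27.6% lower. IFI27 (1.36 ± 0.22, edgeR adjusted p = 1.16e-07) and IFITM3 (0.88 ± 0.08) responded upward in BxPC3 relative to SUIT2. The largest lower responses were for IFIT5 (-2.32 ± 0.26), DDX58 (-1.59 ± 0.14) and IRF9 (-1.58 ± 0.25; edgeR adjusted p = 4.24e-13, 8.92e-18 and 3.3e-08). Between Panc327 and SUIT2, 10 were higher and 14 lower, where 60.7% of all genes differed, 28.3% higher and 32.4% lower. IFI27 (1.29 ± 0.25), IFITM1 (1.07 ± 0.15) and IFITM3 (0.85 ± 0.10) responded upward in Panc327, and IFIT5 (-2.91 ± 0.26), IFIT2 (-2.16 ± 0.34) and DTX3L (-1.97 ± 0.14) downward. These comparisons share libraries with those above. With library size alone the counts were 5 higher and 23 lower for BxPC3 minus SUIT2, where 13.0% and 44.0% of all genes were, and 7 and 17 for Panc327 minus SUIT2, where 16.7% and 42.7% of all genes were.

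With DMSO alone, BxPC3 expressed most of these genes at the highest level and Panc327 at the lowest. BxPC3 was highest for 30 of the 43, 28 of them called against both other lines, and Panc327 was lowest for 29, 23 of them called against both. The same ranks were not counted over all genes, of which 78.6% to 82.5% differed in each pair of lines. Against Panc327, 34 genes were higher in BxPC3 and 4 lower, where 79.3% of all genes differed, 38.6% higher and 40.7% lower (edgeR). The median log2 difference of the 43 was 1.68, against -0.02 for all genes. Against SUIT2, 30 were higher in BxPC3 and 12 lower, where 78.6% of all genes differed, 38.9% higher and 39.7% lower, with a median of 0.90. Panc327 was higher than SUIT2 for 5 and lower for 28, where 82.5% of all genes differed, 42.9% higher and 39.6% lower, with a median of -1.05.

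MX2, a GTPase that restricts retroviruses, stood furthest apart. It held 70.7, 66.5 and 66.8 CPM in BxPC3 DMSO libraries, and 1 count over the 3 Panc327 DMSO libraries, a ratio of 1870 (95% counting interval 335 to 73906). SUIT2 DMSO libraries had 0.607, 0.244 and 0.110 CPM, and the log2 difference of BxPC3 from SUIT2 was 7.68 ± 0.19 (edgeR adjusted p = 1.29e-54). OASL averaged 147 ± 6.71 CPM in BxPC3, 2.97 ± 0.793 CPM in Panc327 and 34.9 ± 0.629 CPM in SUIT2 (SD, n = 3 each). OAS1 was nearly silent in Panc327, at 0.554, 0.321 and 0.436 CPM, beside 25.1, 27.7 and 24.0 CPM in BxPC3 and 31.9, 32.9 and 31.2 CPM in SUIT2. IFIT3 averaged 64.3 CPM in BxPC3, 1.16 CPM in Panc327 and 21.6 CPM in SUIT2, and all 3 pairs differed.

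Some genes ran against that order. GBP2 averaged 2.16 ± 0.296 CPM in BxPC3 and 2.29 ± 0.372 CPM in Panc327, neither called against the other, and 59.5 ± 2.49 CPM in SUIT2. USP18 was lowest in BxPC3, at 2.28 CPM, beside 19.1 CPM in Panc327 and 18.6 CPM in SUIT2. IRF7 had 0 counts in the 3 BxPC3 DMSO libraries, at least 17.2-fold lower than in Panc327 (55 counts) and at least 55.1-fold lower than in SUIT2 (163 counts), with 3 counts set for the group at 0. IFITM1 and IFITM3 were highest in SUIT2. IFIT5 was highest in Panc327, by 0.43 ± 0.13 over SUIT2 and with BxPC3 lower than Panc327 by 0.47 (edgeR adjusted p = 0.00129 and 0.000468). IRF3 and SAMD9 were also higher in Panc327 than in SUIT2, by 1.09 and 0.37 on the log2 scale. IFI35 was lower in BxPC3 than in SUIT2, with a log2 difference of -2.97, and IFI44L and SAMD9 were higher in BxPC3, by 3.25 and 2.94. BST2 averaged 141 ± 4.86 CPM in BxPC3, 25.1 ± 1.25 CPM in Panc327 and 10.3 ± 2.23 CPM in SUIT2. Per kilobase of exon, BST2 was the most abundant gene of the list in BxPC3 DMSO libraries (126 CPM per kilobase), ISG15 in Panc327 (29) and IFITM3 in SUIT2 (93.0).

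The upstream pathway was read from 92 further genes, of which 65 passed the filter. Of the 21 interferon genes themselves none passed. 16 had 0 counts in all 18 libraries and the other 5 had 61 counts in all, 52 of them for IFNE, with at most 7 in any library. Of the 65 tested, 16 were higher and 27 lower with THZ1 in BxPC3, 20 and 28 in Panc327, and 6 and 3 in SUIT2. Over all genes, 35.2% were higher and 34.1% lower in BxPC3, 35.6% and 37.8% in Panc327, and 6.95% and 7.64% in SUIT2. Of the 6 interferon receptor genes, 5 fell in BxPC3 and 5 in Panc327, where 34.1% and 37.8% of all genes were called lower. IFNAR1, a subunit of the type I receptor, held 33.9, 32.3 and 28.6 CPM with THZ1 in BxPC3, against 58.7, 53.9 and 52.6 CPM with DMSO (-0.80 ± 0.08, edgeR adjusted p = 2.1e-15). It fell by 0.63 in Panc327 and was not called in SUIT2, and IFNAR2 fell by 0.64 and 0.57. IFNGR2 fell by 0.17 and 0.38 and the lambda receptor gene IFNLR1 by 1.11 and 1.53. IFNGR1 fell in Panc327 by 0.73 and was not called in BxPC3. IL10RB fell in BxPC3 by 0.77 and in SUIT2 by 0.39 and rose in Panc327 by 0.41. IFNAR2 and IL10RB share 2038 and 1732 exonic bases with other coding genes, so their reads may not all be their own.

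The kinase genes JAK1 and TYK2 rose in all 3 lines, JAK1 by 0.80 in BxPC3, 0.90 in Panc327 and 0.19 in SUIT2. STAT3 rose in BxPC3 and Panc327, by 0.80 and 0.73. The repressor IRF2 fell to 6.04, 4.77 and 4.48 CPM with THZ1 in BxPC3, against 25.8, 26.4 and 23.4 CPM with DMSO, a log2 fold change of -2.31 ± 0.15. It fell by 2.92 in Panc327. MAVS, the adaptor of RIG-I and MDA5, fell in all 3 lines, by 2.13, 1.37 and 0.67, with 46.9, 59.5 and 50.1 CPM with THZ1 in BxPC3, against 224, 242 and 221 CPM with DMSO. SOCS1, a feedback inhibitor of JAK kinases, rose in Panc327 by 1.64. Among the other named pathway genes, LGALS3BP rose in BxPC3 by 0.83, APOL1 rose in Panc327 by 0.93, TRIM21 fell there by 2.49, IKBKE fell in BxPC3 by 1.28, and in SUIT2 ZC3HAV1 rose by 0.31, SOCS3 by 0.51 and JAK2 by 0.37, while APOL6 fell by 0.28.

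The share of records that aligned to several places, kept outside the gene counts, was 22.8% with THZ1 and 12.8% with DMSO in BxPC3, 52.8% and 13.6% in Panc327, and 12.9% and 13.2% in SUIT2. It moved with the treatment in the same 2 lines in which most genes were called, and its part in these results was not tested. The ductal epithelial markers summed to 9747 to 10066 CPM with THZ1 and 6312 to 6434 CPM with DMSO in BxPC3, and to 6468 to 6889 and 4678 to 4792 CPM in Panc327. Among them the keratin gene KRT19 went the other way in Panc327, at 686 CPM with THZ1 and 802 CPM with DMSO. The fibroblast markers, nearly all COL1A1, summed to 63.8 to 74.4 CPM with THZ1 and 48.2 to 50.9 CPM with DMSO in Panc327, with DCN at 0 in all libraries, and to 14.8 to 19.8 CPM with THZ1 and 7.78 to 11.9 CPM with DMSO in BxPC3. The endothelial markers summed to 6.58 to 7.42 CPM with THZ1 and 4.07 to 4.99 CPM with DMSO in BxPC3, and to 16.6 to 18.5 and 12.2 to 13.6 CPM in Panc327. These sums were mostly CDH5 in BxPC3 and nearly all VWF in Panc327. The part of these markers in the results was not tested.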

How the data were processed

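Each library has a deposited table of raw counts by gene symbol. The submitters' processing notes name the build hg38 and the tools HTSeq 0.6.1, TopHat2 2.1.0 and bcl2fastq 1.8.4. Poly(A) RNA libraries were made with the TruSeq RNA v2 kit, per the labels' protocols. The sources used here do not give the authors' annotation, strand setting or counting mode. The 5 summary entries of each file held 21.3% to 64.6% of records and entered neither library sizes nor tests.

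These counts were fitted with edgeR 4.0.16 under R 4.3.3 (TMM, filterByExpr with minimum count 10 and minimum total 15, robust quasi-likelihood fit with 6 group means and 12 residual degrees of freedom, Benjamini-Hochberg adjustment over 14011 genes). Each SE was derived as |log2 fold change| over the root of F. The alternatives were DESeq2 1.42.0, voom from limma 3.58.1, scaling by RLE or by library size alone, a fit without the filter, a fit of the compared lines alone, a replicate block, and omission of each library. Tables and figures used Python 3.11.15, pandas 2.3.3, numpy 2.4.6 and matplotlib 3.10.9.

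The genes and lists were chosen with earlier results of these data known. Full values were given to the 8 largest called rises and falls per THZ1 comparison, 3 per direction for response differences and 4 for DMSO comparisons, where a compared group averaged 5 CPM or more, and to STAT2, IRF9, IRF1, IFIT1, IFI6 and ISG15. Other pathway genes were named up to 3 per direction. The remaining genes were described by role, some chosen after their values were seen. Promoters are from RefSeq, GRCh38.p14, and positions from GENCODE 29, which matched all 43 symbols. Counting intervals and floors cover counting error only.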

Additional observations from a re-analysis of the deposited data

Results flagged for a closer look

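Responses that differed between lines by a direct edgeR test of the difference are listed as log2 values. Chosen as the 3 largest in each direction, BxPC3 minus Panc327 gave 1.79 for IFIT1, 1.41 for IFIT2, 0.87 for SAMD9, -1.22 for IRF1, -1.12 for ISG20 and -0.76 for GBP1. BxPC3 minus SUIT2 gave 1.36 for IFI27, 1.33 for ISG20, 0.93 for IFI6, -2.32 for IFIT5, -1.59 for DDX58 and -1.58 for IRF9. Panc327 minus SUIT2 gave 1.29 for IFI27, 1.07 for IFITM1, 0.85 for IFITM3, -2.91 for IFIT5, -2.16 for IFIT2 and -1.97 for DTX3L. ISG20 lost its call against SUIT2 without SUIT2 THZ1 replicate 1 or 2 or SUIT2 DMSO replicate 2 (edgeR adjusted p = 0.093, 0.0586 and 0.0901). With library size alone ISG20 stood at 0.95 and IFI6 at 0.55 for BxPC3 minus SUIT2, neither called (edgeR adjusted p = 0.103 and 0.0795, the lowest over all alternatives being 0.0053 and 0.000345).

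Outside the gene counts, records aligned to several places made up 22.8% with THZ1 in BxPC3 and 52.8% with THZ1 in Panc327, above the shares in the DMSO libraries of 12.8% and 13.6%. Groups of 3 are too small for a test of single outlying samples.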

How the results depend on the processing

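With library size only, the other pathway genes in BxPC3 gave 7 higher and 46 lower, against 16 and 27, where 18.6% and 50.7% of all genes were. Higher responses for BxPC3 minus SUIT2 gave 5 against 9, where 13.0% of all genes were higher, against 27.3%. STAT2 changed sign to -0.25 in BxPC3 and -0.21 in Panc327. DESeq2 gave 2 interferon-stimulated genes lower in SUIT2, against 6, where 5.1% of all genes were lower, against 7.64%. It gave 3 other pathway genes higher in SUIT2, against 6, where 3.95% of all genes were higher, against 6.95%. Fitting only the lines compared gave 7 lower responses for BxPC3 minus Panc327, against 4, where 25.1% of all genes were lower, against 14.1%. Panc327 fitted alone gave 12 interferon-stimulated genes higher and 13 lower with THZ1, where 38.6% and 40.7% of all genes were. IFIT3 and SAMD9L did not pass the filter in that fit. The causes were not tested. Leaving out each library gave 2 to 5 genes higher and 2 to 6 lower in SUIT2 (2 higher without THZ1 replicate 1 or 3, and 2 or 3 lower without DMSO replicate 1 or THZ1 replicate 2 or 3). Lower responses for BxPC3 minus Panc327 ranged from 2 to 6, with 2 without BxPC3 DMSO replicate 2, Panc327 THZ1 replicate 2, or Panc327 DMSO replicate 1 or 3. Shares over all genes were not counted with a library left out, so these ranges have no background. IFI6 in SUIT2 ranged from -0.0071 to 0.37. Of 348 counts recomputed, 333 stayed within 1.5 times the reported count. Of the calls with THZ1, 7 higher and 18 lower in BxPC3, 9 and 11 in Panc327, and 1 and 2 in SUIT2 held under every alternative. The share of calls that held was not counted over all genes, so these counts have no background.

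Same-numbered libraries did not deviate together (correlations -0.21 to 0.04 over 9 pairs), so the numbers were not taken as pairs. With a replicate block the counts were 10 higher and 21 lower in BxPC3, 12 and 16 in Panc327, and 4 and 6 in SUIT2, and IRF1 in SUIT2 lost its call (edgeR adjusted p = 0.0555). Of all genes, 35.1% were higher and 34.0% lower with the block in BxPC3, 35.5% and 37.7% in Panc327, and 6.54% and 7.39% in SUIT2.

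Counts of a few reads per library limit genes such as MX2, SAMD9L and IFI44L in Panc327 and IRF7 in BxPC3. A change in total RNA per cell was not measured.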
